A study of Homo sapiens with 6 samples.

Results

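The 10 genes described here encode secreted inflammatory cytokines: the chemokines CXCL8, CXCL1, CXCL2, CXCL3 and CCL2, the interleukins IL1A and IL1B, and the cytokines IL6, LIF and IL11 of the gp130 family. They were taken from the count table by gene symbol, and all 10 symbols were found among its 58051 gene rows. CXCL8 was chosen by its rise in the comparison reported below, so its values are given as a description with no test. The other 9 were listed as related cytokines, with results of these data already known, and their calls support nothing beyond the values themselves.

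The libraries came from U2OS, an established line grown from a human osteosarcoma, cultured in medium with 10% serum. One group of 3 libraries received a scrambled siRNA (siSCR) and the other group of 3 received an siRNA against SURF2 (siSURF2), each in 2 transfections 49 h apart, and polyA RNA was taken at 96 h. Both groups therefore went through transfection. The title of the series places SURF2 in the nucleolar stress response, in which p53 is released from its ligase MDM2, and the comparison asks which mRNAs differed once SURF2 was lowered. No label says that replicates came from separate cultures, and p-values then reflect only how far these libraries differ, which may be technical. In bulk RNA, a lower level cannot be told apart from fewer cells that make the mRNA.

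Gene counts per library ran from 17123333 to 19688089, so that 1 count was worth about 0.050 to 0.060 CPM (counts scaled to a common library size, with TMM factors). SURF2 itself was at 36.2, 35.8 and 32.3 CPM in siSCR and at 3.74, 3.56 and 3.199 CPM in siSURF2 (log2 fold change -3.31 ± 0.10), so it was low in every library labelled siSURF2. siSURF2 replicate 2 stood apart from its group: its counts differed from replicates 1 and 3 with a chi-square of 8.97 and 10.4 per degree of freedom, and replicates 1 and 3 differed from each other by 2.89. Results that turn on it are also given without it. Of a list of 12 mesenchymal and osteoblast markers, 8 were tested, and 5 rose (62.5%, beside 25.8% of all genes tested) and 1 fell (12.5%, beside 26.2%). On the log2 scale SPP1, FN1, SPARC, CDH2 and COL1A1 rose by 1.67, 1.10, 0.47, 0.46 and 0.43, ALPL fell by 2.07, and VIM and RUNX2 were well expressed with no call (0.04 and 0.02). COL1A2 had 0 to 3 counts per library and IBSP had none. The 12 markers of this list summed to 3313.1 to 3397.9 CPM in siSCR and 3791.5 to 4118.5 CPM in siSURF2, with no overlap. Markers of blood, endothelial and epithelial cells (19 genes) summed to 22.1 to 23.4 CPM in siSCR and 20.9 to 23.1 CPM in siSURF2. In that list, where 8 genes were tested, 1 rose (12.5%) and 2 fell (25%): EPCAM rose by 0.99 on the log2 scale, and CDH1 and PECAM1 fell by 2.70 and 1.34. The leukocyte gene PTPRC had 2 to 4 counts per library in siSCR and 6 to 8 in siSURF2, CD14, a marker of monocytes, had 0 to 3 in all libraries, and LYZ, CD3E and HBB had no count.

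Chemokines are small secreted proteins that attract leukocytes through receptors of the G protein-coupled class. CXCL8 (interleukin 8) and the closely related CXCL1, CXCL2 and CXCL3 draw neutrophils through CXCR1 and CXCR2, and CCL2 draws monocytes through CCR2. IL-6, LIF and IL-11 signal through the shared receptor chain gp130, encoded by IL6ST, to JAK kinases and STAT3. IL-1 alpha and IL-1 beta act through IL1R1 and its partner IL1RAP to switch on NF-kB. These genes are classic targets of NF-kB, AP-1 and C/EBP factors, and their mRNAs are short-lived because many carry AU-rich elements in the 3′ UTR. Secretion of IL-6 and CXCL8 is a well-known trait of senescent and stressed mesenchymal cells.

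The regulatory sequence before CXCL8 is shown first, because the results turn on this gene and on how its neighbours compare with it. The stretch covers chr4:73740386-73740505 on the plus strand (RefSeq promoter table, GRCh38.p14), from 183 to 64 bases before the RefSeq start, and ends where the first annotated exon of GENCODE begins. Capitals mark an AP-1 match (TGANTCA) and an NF-kB match (GGNNTTTCC), each searched on both strands.
CXCL8: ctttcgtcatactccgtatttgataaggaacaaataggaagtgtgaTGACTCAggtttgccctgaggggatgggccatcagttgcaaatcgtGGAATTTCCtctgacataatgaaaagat

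Promoter windows of 300 bases were found in the RefSeq table for 8 of the 10 genes, LIF and CCL2 being the others. An NF-kB match was present in 5 of these 8, against 7.61% of all 27305 genes with such windows (6.26% of the 35116 windows). In 4 of the 5 it was the same 9 letters, GGAATTTCC, which occurred in 0.56% of all genes. CXCL1, CXCL2 and CXCL3 are near copies of each other around the match, as given below, so their matches are not independent. The 5 matches are shown in 30 bases each, with the match in capitals, to let CXCL8 be compared with the CXC genes beside it.
CXCL8: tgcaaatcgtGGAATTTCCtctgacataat
CXCL1: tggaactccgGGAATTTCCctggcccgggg
CXCL2: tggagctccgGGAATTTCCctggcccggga
CXCL3: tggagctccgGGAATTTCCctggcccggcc
IL6: atcaaatgtgGGATTTTCCcatgagtctca

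These stretches lie at chr4:73740468-73740497 (CXCL8, plus strand), chr4:73869305-73869334 (CXCL1, plus), chr4:74099253-74099282 (CXCL2, minus), chr4:74038748-74038777 (CXCL3, minus) and chr7:22727118-22727147 (IL6, plus). Aligned on this match, CXCL1 and CXCL3 shared 92 of 100 bases, CXCL1 and CXCL2 shared 82, and CXCL2 and CXCL3 shared 79. CXCL8 shared only 33 or 34 of 100 bases with each of the others around the common core. CXCL1, CXCL2 and CXCL3 also held a further NF-kB match, GGGCTTTCC, from 53 to 45 bases before the RefSeq start. The AP-1 letters were found in CXCL8, IL11 and IL1A, against 9.37% of all genes, and in none of CXCL1, CXCL2 or CXCL3. A C/EBP match (TTGCNNAA, both strands) was found in CXCL2, IL1B and IL6, against 12.7% of all genes. In CXCL8 the letters ttgcaaat, just before the NF-kB match, differ from this pattern only in the last letter. Near matches were not searched in the other genes. A match is a description of letters and not a bound site.

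Most of these mRNAs held AU-rich motifs in the 3′ UTR. Such elements are known for cytokine genes, as given above, so the choice of genes was not independent of them. The AU-rich nonamer TTATTTATT was found in the 3′ UTR of 7 of the 10 genes, against 7.31% of the 18810 genes searched (GENCODE release 29, the transcript with the longest coding sequence). IL6, IL1A and CCL2 had none. All 10 had more copies of the pentamer ATTTA per kilobase than the median gene (1.42), and 7 were above the 90th percentile of all genes (5.03). CXCL2 and IL6 had the most, 13.9 and 14.0 per kilobase, and LIF the fewest, 2.18. The first nonamer of CXCL8, of LIF as the most abundant gene and of IL11 as the next is shown in 30 bases, with the nonamer or its overlapping copies in capitals.
CXCL8: atgtaaagtaTTATTTATTtgaatctacaa
LIF: ctccgggcccTTATTTATTatttaaacatt
IL11: aagccagatcTTATTTATTTATTTATTtca
These lie at chr4:73742664-73742693 (plus strand), chr22:30240957-30240986 (minus) and chr19:55365946-55365975 (minus, GRCh38). CXCL8 held 1 such nonamer, LIF 2 and IL11 6. The part of these elements in the level of any of the genes was not tested.

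CXCL8 (ENSG00000169429, chr4:73740506-73743716, plus strand, GRCh38) was nearly silent in siSCR and present at a low level in siSURF2. It had 10, 6 and 7 counts in siSCR replicates 1, 2 and 3 and 84, 83 and 110 counts in siSURF2 replicates 1, 2 and 3. In CPM these were 0.595, 0.321 and 0.359 against 4.62, 4.28 and 5.50, and every siSURF2 library lay far above every siSCR library. The means were 0.425 ± 0.148 and 4.80 ± 0.626 CPM (SD, n = 3 each), an 11.3-fold higher level in siSURF2. The log2 fold change was 3.50 ± 0.27 (SE), the 11th highest of 17561 genes tested. From the summed counts, 23 against 277, the ratio was 11.5. Because CXCL8 was chosen by this rise, the size of the rise may be overstated, and no interval is given. Without siSURF2 replicate 2 the log2 fold change was 3.58, and over 16 other settings it ran from 3.35 to 3.78. Markers of blood, endothelial and epithelial cells had summed levels that overlapped between the groups, as given above, and the mesenchymal and osteoblast markers did not. PTPRC had 2 to 4 counts in siSCR and 6 to 8 in siSURF2. The part of the mix of cells in the CXCL8 level was not tested.

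**Figure D1:**
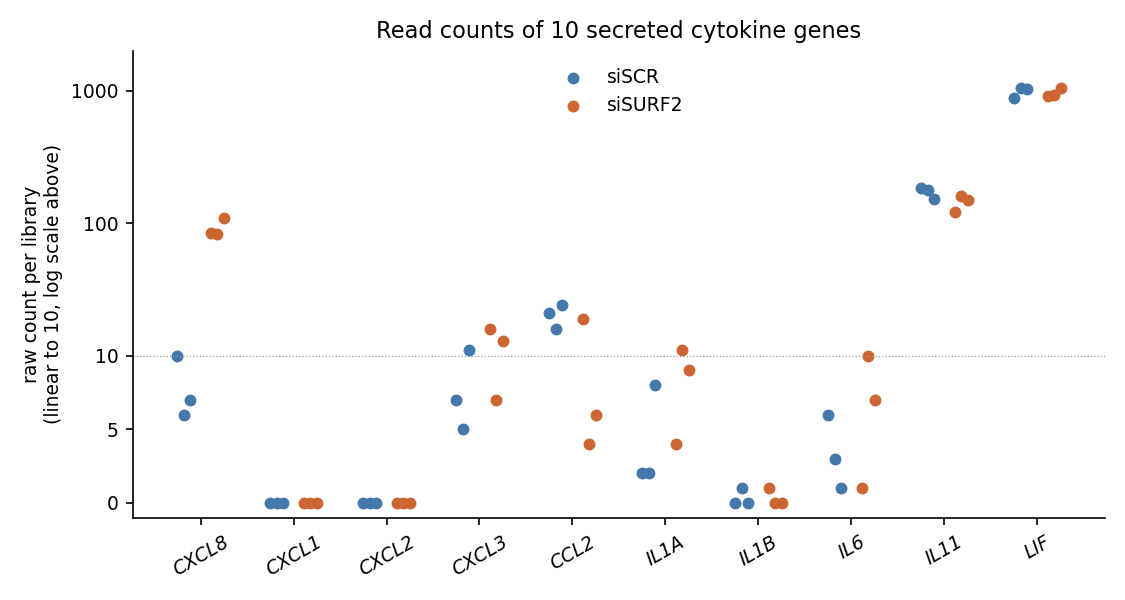
Raw read counts of the 10 cytokine genes in each library, linear up to 10 counts (dotted line) and on a log scale above, with siSCR in blue and siSURF2 in orange and 1 point per library. CXCL8 moved from 6 to 10 counts to between 83 and 110, CXCL1 and CXCL2 had none in any library, and LIF and IL11 were the only genes with over 100 counts in siSCR.

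No rise was detected in the CXC relatives CXCL1, CXCL2 and CXCL3, but their counts were 0 or few, which limits what could be seen. CXCL1 and CXCL2 had 0 counts in all 6 libraries, which allows a level of up to 0.150 to 0.179 CPM per library (3 counts). CXCL3 had 7, 5 and 11 counts in siSCR and 16, 7 and 13 in siSURF2, so the groups overlapped. The ratio of its summed counts, siSURF2 over siSCR, was 1.49 (exact 95% interval 0.862 to 2.64, covering counting error only). The log2 fold change of CXCL3 was 0.58 ± 0.46 and it did not pass the threshold (edgeR adjusted p = 0.30). Leaving out siSURF2 replicate 2 or 1 gave 0.85 or 0.29, and neither passed.

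CXCL1, CXCL2 and CXCL3 are near copies of each other, and reads that fit more than 1 of them may have been dropped or split by the authors' counting. Of the windows of 50 bases along their coding transcripts, 5.73%, 9.24% and 5.26% occurred exactly in another gene of the trio, and of windows of 100 bases none did. CXCL8 shared no window of either length with any other gene.

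CXCL8 lies at one end of the CXC chemokine cluster on chromosome 4, and most genes of the cluster had few counts or none. From the start of CXCL8 at 73740506 to the end of CXCL2 at 74099293 (358.8 kb, GRCh38), GENCODE places 9 protein-coding genes, of which 5 had no count in any library. These were CXCL1, CXCL2, PF4V1, PF4 and PPBP, the last 3 known from platelets. CXCL6 had 1 count in all, and CXCL5, a neutrophil attractant, had 6, 1 and 2 counts in siSCR and 1, 0 and 1 in siSURF2. CXCL8 and CXCL3 were the only genes of the 9 with more than 11 counts over the 6 libraries.

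**Figure D2:**
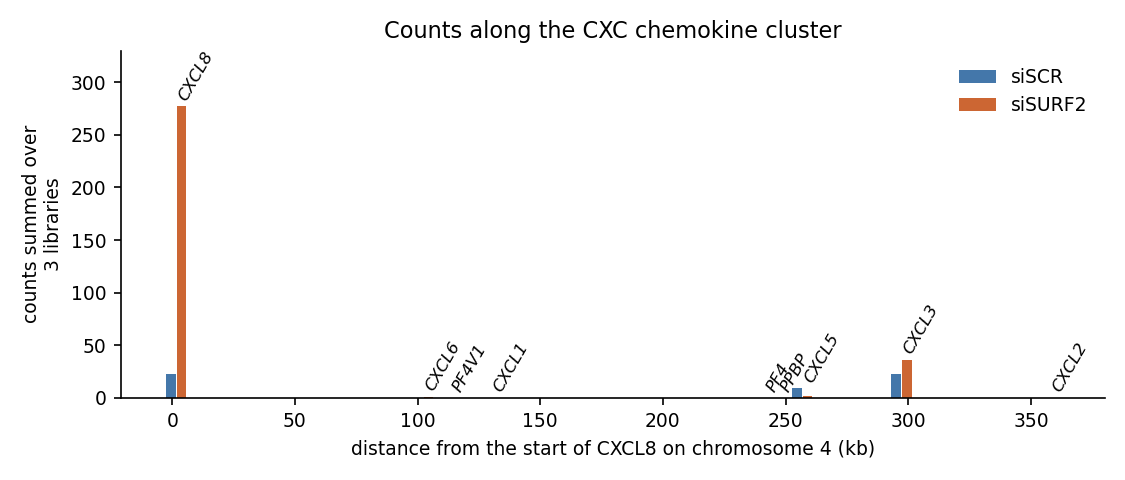
Counts summed over the 3 libraries of each group for the 9 protein-coding genes of the CXC cluster on chromosome 4, placed by their distance in kb from the start of CXCL8 (siSCR in blue, siSURF2 in orange). CXCL8 went from 23 to 277 counts, CXCL3 from 23 to 36, and the others had 11 counts or fewer over all libraries.

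CCL2, the monocyte chemokine on chromosome 17, was lower in siSURF2, but on few counts and with overlapping groups. It had 21, 16 and 24 counts in siSCR and 19, 4 and 6 in siSURF2, siSURF2 replicate 1 lying within the siSCR range. The means were 1.11 ± 0.223 and 0.517 ± 0.459 CPM (SD, n = 3 each), and the log2 fold change was -1.12 ± 0.44 (edgeR adjusted p = 0.031). The call was lost without siSCR replicate 1 or 3 and without siSURF2 replicate 2 or 3 (log2 fold changes of -1.05, -1.04, -0.75 and -0.84, adjusted p of 0.092, 0.095, 0.16 and 0.13). Without siSURF2 replicate 1, the library that overlapped siSCR, the log2 fold change was -2.08. With DESeq2 the adjusted p was 0.077, and it ran from 0.0013 to 0.16 over the 15 settings that tested the gene.

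The interleukins of the IL-1 family and IL6 were at the edge of detection in both groups. IL1A, which encodes IL-1 alpha, had 2, 2 and 8 counts in siSCR and 4, 11 and 9 in siSURF2. IL1B had 1 count in siSCR replicate 2, 1 in siSURF2 replicate 1 and none in the other libraries. IL6 had 6, 3 and 1 counts in siSCR and 1, 10 and 7 in siSURF2, its lowest value in siSURF2 equal to its lowest in siSCR. The ratios of summed counts, siSURF2 over siSCR, were 1.91 for IL1A (exact 95% interval 0.919 to 4.19) and 1.72 for IL6 (0.752 to 4.17), both covering counting error only. The groups of each gene overlapped, all 3 were under the filter on low counts, and no difference was detectable at this depth.

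LIF and IL11 had the highest mean mRNA levels of the 10 cytokines in both groups. LIF, a gp130 cytokine known for keeping stem cells undifferentiated and for effects on bone cells, was at 52.7, 56.5 and 52.5 CPM in siSCR and 49.9, 48.0 and 52.2 CPM in siSURF2. All siSURF2 libraries were just under the lowest siSCR library, yet the log2 fold change of -0.11 ± 0.06 did not pass the threshold (edgeR adjusted p = 0.14). IL11, a gp130 cytokine linked to fibrosis and bone turnover, was at 10.9, 9.47 and 7.75 CPM in siSCR and 6.71, 8.26 and 7.45 CPM in siSURF2, and the groups overlapped. Its means were 9.37 ± 1.57 and 7.47 ± 0.776 CPM (SD, n = 3 each; log2 fold change -0.32 ± 0.13, edgeR adjusted p = 0.043). This call lay at the threshold: it was lost without siSCR replicate 1 (-0.21, adjusted p = 0.23), siSCR replicate 2 (-0.30, 0.12), siSURF2 replicate 1 (-0.23, 0.21) or siSURF2 replicate 3 (-0.31, 0.086). Over all 16 other settings its adjusted p ran from 0.0067 to 0.62.

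Set beside the whole table, 5 of the 10 genes passed the filter on low counts and 5 did not. Of the 4 tested genes other than CXCL8, 2 were called lower (IL11 and CCL2) and 0 higher by edgeR, and 0 were higher at an unadjusted p under 0.05, with DESeq2 or with limma-voom. Over all 17561 genes tested, 26.2% were called lower and 25.8% higher, so calls in either direction were common in this comparison. The median log2 fold change of these 4 genes was -0.21, against 0.0042 over all genes tested. The list was drawn up around CXCL8 from the same comparison, so nothing is read from these counts.

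Within each group the order of levels was set by CPM per kilobase of annotated exon. In siSCR, LIF was highest at 13.6 ± 0.562, followed by IL11 at 3.51 ± 0.588 and CCL2 at 0.560 ± 0.112 CPM per kb (SD, n = 3). CXCL3 at 0.188 ± 0.0670 and CXCL8 at 0.187 ± 0.0653 came next and could not be told apart, and IL1A (0.0999 ± 0.0810) and IL6 (0.0917 ± 0.0749) overlapped with both and with each other. In siSURF2 LIF was again highest at 12.6 ± 0.538 and IL11 second at 2.80 ± 0.290 CPM per kb. CXCL8, at 2.11 ± 0.275, was now next after IL11, its highest library (2.42) just under the lowest IL11 library (2.51). CXCL3 (0.284 ± 0.117), CCL2 (0.260 ± 0.231), IL1A (0.194 ± 0.0833) and IL6 (0.148 ± 0.113) followed with overlapping ranges. By CPM per kb of annotated exon, CXCL8 was after its rise still under IL11 and well under LIF. With the length of the coding transcript in place of all exons, CCL2 was at 1.501 and 0.698 CPM per kb in siSCR and siSURF2, CXCL3 at 0.387 and 0.586, and CXCL8 at 0.249 and 2.82. IL11 was then at 4.108 and 3.276, and in siSURF2 its libraries overlapped with those of CXCL8.

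**Figure D3:**
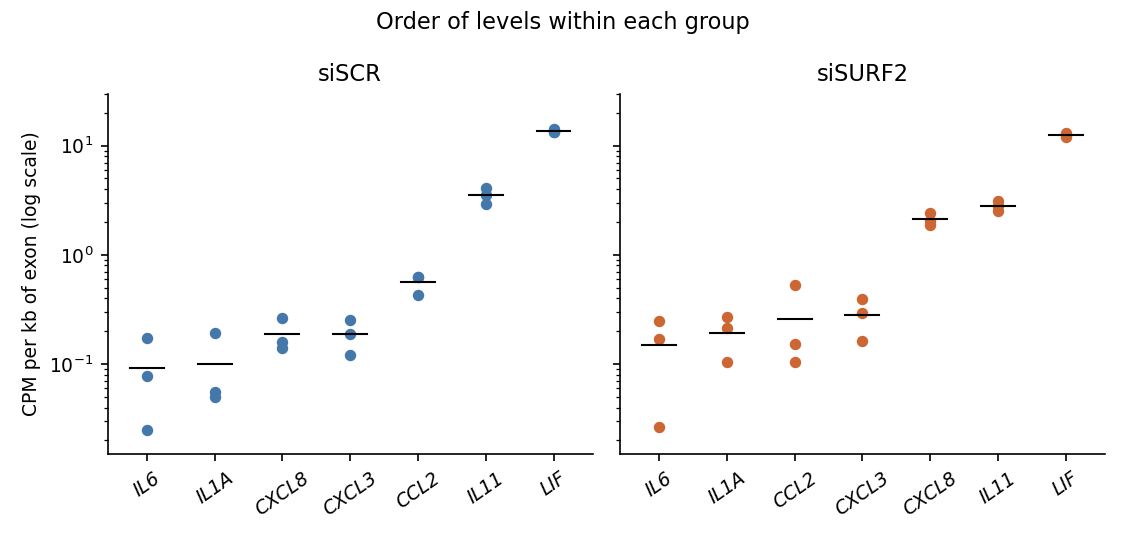
Level of each cytokine gene in CPM per kb of exon on a log scale, ordered by the mean within siSCR (left, blue) and siSURF2 (right, orange), with 1 point per library and the mean as a line. CXCL1, CXCL2 and IL1B, with 0 to 2 counts over all libraries, are not drawn, and CXCL8 moves from among the low genes (0.187) to the next place after IL11 (2.11), with IL11 at 2.80 and LIF well above both at 12.6.

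Other secreted ligands moved in both directions. Of 33 further chemokines, 24 were under the filter, 9 of them with no count at all, and of the 9 tested 2 rose, 3 fell and 4 did not pass. CCL26 (eotaxin-3), which attracts eosinophils, rose from 1.48 ± 0.495 to 4.49 ± 0.538 CPM (SD, n = 3 each; log2 fold change 1.59 ± 0.22, edgeR adjusted p = 6.7e-07). CXCL16, a membrane-anchored chemokine, rose by 0.40 ± 0.09 on the log2 scale. CCL5 (RANTES), which draws T cells and monocytes, was at 6.55, 7.27 and 10.4 CPM in siSCR and 0.880, 0.878 and 0.800 CPM in siSURF2. Its log2 fold change was -3.24 ± 0.22 (edgeR adjusted p = 7.4e-13), a fall nearly as large on the log2 scale as the rise of CXCL8. CXCL14 and CCL3 fell by 1.66 ± 0.38 and 1.74 ± 0.56 on the log2 scale. CCL3 lost its call without siSCR replicate 2, siSURF2 replicate 1 or siSURF2 replicate 2 (adjusted p of 0.055, 0.056 and 0.059), and over all its settings the adjusted p ran from 0.0012 to 0.059. The interferon-type chemokines CXCL10 and CXCL11 had 2 to 9 and 2 to 11 counts in siSCR and at most 1 in siSURF2, and were not tested. These 2 genes are named after their values were seen.

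Of 45 other interleukins and growth-type cytokines, 19 were tested, and 5 rose, 7 fell and 7 did not pass, with a median log2 fold change of -0.31. EBI3, a subunit of IL-27 and IL-35, rose by 0.38 ± 0.09 on the log2 scale and IL18, a member of the IL-1 family, by 0.21 ± 0.05. IL18 was the more abundant of these, at 174.6 ± 5.15 and 201.6 ± 2.07 CPM (SD, n = 3 each). IL34, a ligand of the receptor of CSF1, fell from 3.71 ± 0.123 to 0.817 ± 0.418 CPM (log2 fold change -2.17 ± 0.27, edgeR adjusted p = 6.9e-08). IL32, an inflammatory cytokine, fell by 0.46 ± 0.08 and IL24 by 1.11 ± 0.25. The percentages called in the chemokine list (22.2% higher, 33.3% lower) and in this list (26.3% higher, 36.8% lower) stand beside 25.8% and 26.2% over all genes.

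**Figure D4:**
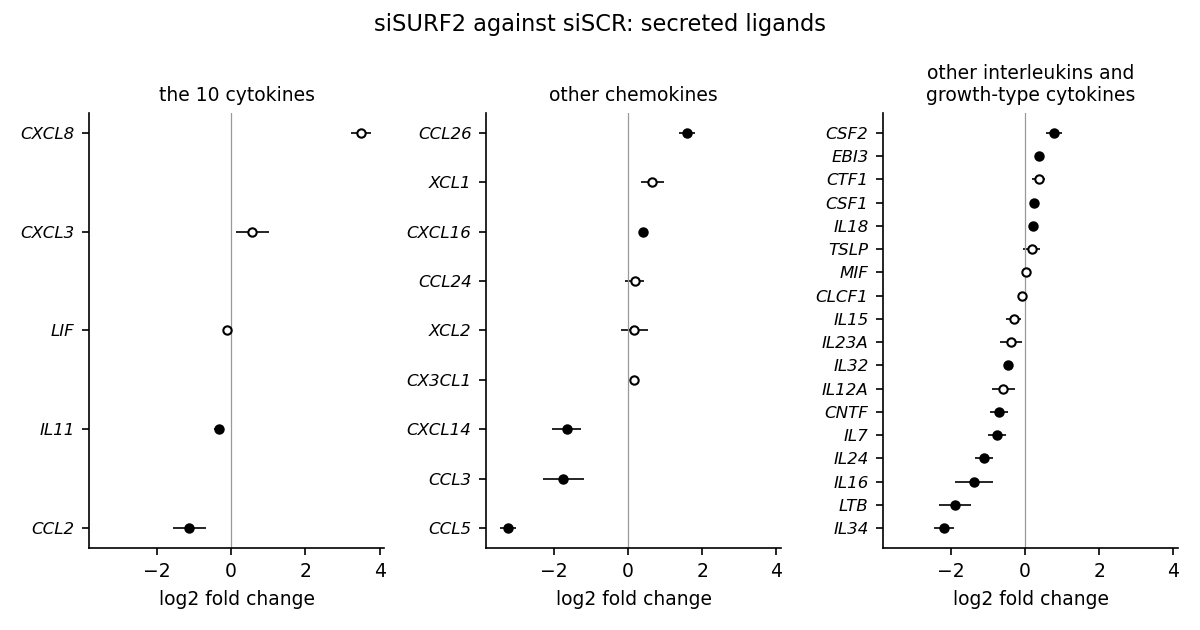
Log2 fold change of siSURF2 over siSCR with its standard error for the tested genes among the 10 cytokines, 33 other chemokines and 45 other interleukins and growth-type cytokines, 1 of the last list left out. Filled points passed edgeR's adjusted p of 0.05, open points did not or, for CXCL8, carry no test, and CXCL8 (3.50) and CCL5 (-3.24) stand at opposite ends.

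The receptors for the chemokines of the list were nearly without counts, while those of the gp130 cytokines were well expressed. The receptor list also held OSMR, IL1RL1 and SIGIRR, relatives that are not receptors of the 10 cytokines. Of its 8 tested genes 2 rose and 2 fell, 25% in each direction beside 25.8% and 26.2% over all genes. CXCR1 had no count, CXCR2 had 0 or 1 per library, and CCR2 had 1 count over all libraries. CCR4, ACKR1, ACKR2, IL1R2 and IL1RL1 had 0 to 8 counts per library. LIFR is a receptor chain that LIF shares with some other gp130 cytokines. It was at 80.2, 83.9 and 91.5 CPM in siSCR and 40.8, 42.5 and 43.9 CPM in siSURF2, with no overlap. Its log2 fold change was -1.01 ± 0.06 (edgeR adjusted p = 7.4e-14). IL6ST, the shared gp130 chain, fell from 257.6 ± 14.5 to 200.6 ± 14.2 CPM (SD, n = 3 each; log2 fold change -0.36 ± 0.05). IL6R, which binds IL-6, rose from 32.2 ± 2.22 to 41.5 ± 1.65 CPM (0.37 ± 0.07), and IL1R1, the signalling receptor of IL-1, from 7.52 ± 0.573 to 10.6 ± 0.666 CPM (0.49 ± 0.12). IL11RA (0.17), OSMR (0.09), IL1RAP (0.11) and SIGIRR (0.06) did not pass on the log2 scale, and the sign of the last 2 changed with the setting. OSMR passed without siSCR replicate 3 (0.15, adjusted p = 0.028). The mean of LIFR in siSCR was 2.01-fold that in siSURF2, beside 1.08-fold for LIF itself.

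Of 24 tested signal carriers below the IL-1 and gp130 receptors, 7 rose (29.2%), 3 fell (12.5%) and 14 did not pass, beside 25.8% and 26.2% over all genes. IRAK4, MAP3K7 and IKBKB, kinases on the path from IL1R1 to NF-kB, rose by 0.61 ± 0.11, 0.43 ± 0.07 and 0.39 ± 0.06 on the log2 scale. STAT3, the main transcription factor below gp130, fell by 0.28 ± 0.05 and PIAS3, an inhibitor of STAT3, by 0.18 ± 0.06. PIAS3 lost its call without siSURF2 replicate 3 (adjusted p = 0.078, and 0.015 to 0.74 over all its settings).

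The genes of NF-kB and of AP-1, whose sequence matches stand before CXCL8, were read in the same fit. Of 23 tested genes of NF-kB subunits, inhibitors and feedback, 5 rose (21.7%) and 13 fell (56.5%), beside 25.8% and 26.2% over all genes. NFKB2 fell from 316.2 ± 24.1 to 168.1 ± 5.47 CPM (SD, n = 3 each), and BIRC3 and TRAF1, feedback genes, fell by 1.13 ± 0.06 and 1.74 ± 0.12 on the log2 scale. TNFAIP2, REL and SOD2 rose by 1.27 ± 0.08, 0.61 ± 0.11 and 0.18 ± 0.05. Of 15 tested genes in the list of AP-1 and C/EBP factors, which also held EGR1 of neither family, 8 rose (53.3%) and 2 fell (13.3%). JUND, an AP-1 subunit, rose from 70.6 ± 9.16 to 127.8 ± 7.15 CPM, CEBPB, which drives many cytokine genes, from 41.0 ± 3.49 to 63.3 ± 2.59 CPM, and DDIT3 by 0.53 ± 0.11. Of the other AP-1 genes listed, JUNB, FOS, FOSB and FOSL2 were called higher, and JUN, FOSL1, ATF2 and ATF3 did not pass. EGR1 fell by 1.71 ± 0.22 and CEBPG by 0.18 ± 0.07. The count that rose was 5 without siSCR replicate 3 or without siSURF2 replicate 1, and CEBPG lost its call without siSCR replicate 2 or siSURF2 replicate 3 (adjusted p of 0.056 and 0.14, and 0.022 to 0.73 over all its settings).

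**Figure D5:**
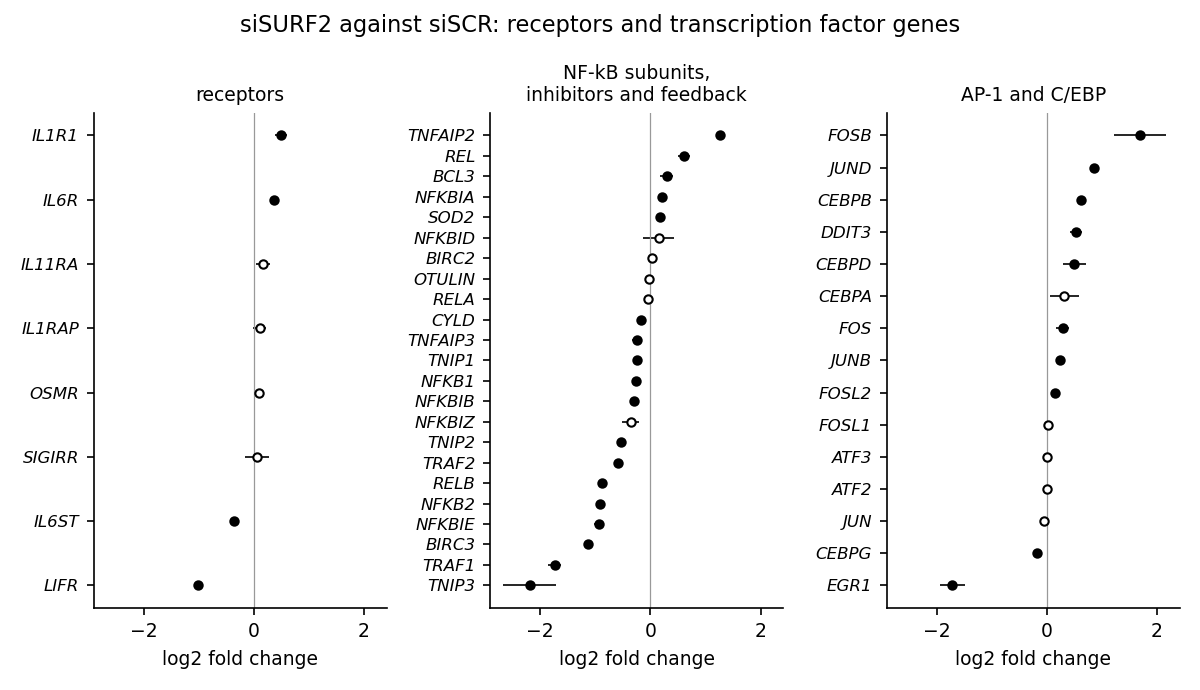
Log2 fold change of siSURF2 over siSCR with its standard error for tested genes of 3 lists. These are receptors of the 10 cytokines with some related receptors (left), NF-kB subunits, inhibitors and feedback genes (middle), and AP-1 and C/EBP genes with EGR1 (right). Filled points passed edgeR's adjusted p of 0.05: LIFR (-1.01) and IL6ST (-0.36) were the receptors that fell, 13 of 23 NF-kB genes fell and 8 of 15 genes on the right rose.

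Genes for regulators of AU-rich mRNAs, with genes of the p38 kinase path among them, went both ways. Of 22 tested, 6 were higher (27.3%, beside 25.8% over all genes) and 9 lower (40.9%, beside 26.2%). ELAVL1 (HuR), which stabilises such mRNAs, rose from 68.4 ± 4.43 to 103.6 ± 4.45 CPM (SD, n = 3 each; log2 fold change 0.60 ± 0.06). ZFP36L1, which promotes their decay, rose by 0.48 ± 0.05, and PNRC1 by 0.83 ± 0.09. RC3H2 (roquin-2), which also promotes decay of cytokine mRNAs, fell by 0.92 ± 0.07, DUSP1, a phosphatase of the p38 kinase, by 0.87 ± 0.07 and MAPKAPK2, a kinase below p38, by 0.22 ± 0.05. ZFP36 (tristetraprolin) was at 0.26 ± 0.15 and did not pass.

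Of 13 tested genes for the maturation and release of IL-1, 5 rose (38.5%), 5 fell (38.5%) and 3 did not pass, beside 25.8% and 26.2% over all genes. CAPN1, a calpain, rose by 0.66 ± 0.06, NINJ1, which ruptures dying cells, by 0.73 ± 0.06 and CASP4, an inflammatory caspase, by 0.57 ± 0.07. NLRP3, the sensor of an inflammasome, fell from 3.35 ± 0.554 to 0.747 ± 0.205 CPM, CAPNS1 fell by 0.43 ± 0.05 and PANX1 by 0.56 ± 0.06. PYCARD, the inflammasome adaptor, had 0 to 4 counts per library.

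Sensors of foreign RNA and interferon genes were read beside the cytokines, because transfected RNA is known to be able to engage such sensors. IFNB1, IFNL2 and IFNL3 had no count in any library and IFNL1 had 1. Of 16 tested sensor and interferon genes 2 rose (12.5%), 4 fell (25%) and 10 did not pass, beside 25.8% and 26.2% over all genes. TLR3, a sensor of double-stranded RNA, was at 4.11, 4.49 and 4.93 CPM in siSCR and 11.1, 12.4 and 13.4 CPM in siSURF2 (log2 fold change 1.45 ± 0.13, edgeR adjusted p = 1.5e-10). RIGI rose by 0.29 ± 0.08, and IFIT3, IFIT2 and DHX58 fell by 0.71 ± 0.08, 0.40 ± 0.11 and 1.24 ± 0.41. DHX58 had only 6 to 18 counts per library and lost its call in 2 of 15 settings (adjusted p of 0.010 to 0.13 over all its settings). The part of RNA sensing in the CXCL8 level was not tested.

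The genes most like CXCL8 over the 6 libraries were ranked by Pearson's r of log2(CPM + 1) among 13648 protein-coding genes tested. TPD52L1 (r = 0.9998), EPHX1 (0.9997), EZH1 (0.9994), EHHADH (0.9992) and FOXP2 (0.9989) came first. The measure mostly reads the split between the groups, and 214 genes were above 0.99. Of the 5, FOXP2 alone had a change of similar size, from 0.129 ± 0.0426 to 1.58 ± 0.178 CPM (log2 fold change 3.56 ± 0.45), while the others had log2 fold changes of 0.64 to 1.02.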

How the data were processed

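The values used were read counts of 6 libraries, deposited by the authors as whole numbers with no scaling. The build GRCh38 and the tools STAR 2.5.2b and fastp 0.23.1 are named in the submitters' processing notes. The sources used here do not give how reads were counted, with which annotation, or with or without strand. ERCC spike-ins (92 rows, 1.12% to 1.72% of counts) entered neither library sizes nor tests. Symbols came from a gene name table and, for 499 rows, from GENCODE release 29. Counts were filtered with filterByExpr (minimum count 10, minimum total 15), scaled with TMM factors and tested across all genes with the quasi-likelihood F-test of edgeR 4.0.16 in R 4.3.3, adjusted by Benjamini-Hochberg with a threshold of 0.05. Printed log2 fold changes include edgeR's prior count, and standard errors come from F and the change fitted without it. CPM values are TMM-scaled and given as mean ± SD. The program was checked on simulated counts. The genes and lists were chosen with earlier results of these data known. Of each list, up to 3 tested genes per direction with the smallest adjusted p were named, of the receptors every gene with a count, and the 5 genes most like CXCL8. Markers fixed by name (PTPRC, CD14, EPCAM, PECAM1, VIM, RUNX2, COL1A1) were added. SPP1, ZFP36, RELA, the AP-1 genes named without values and genes named at 0 or few counts were chosen after their values were seen. The result of 1 gene in each of 2 lists is counted with its list but not reported here. Alternatives were RLE, upper-quartile, no or ERCC scaling, 2 other filters, DESeq2 1.42.0, limma-voom (limma 3.58.1), a non-robust prior, the replicate number as a block and leaving out each library. Lengths of coding transcripts were added after seeing the data.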

Additional observations from a re-analysis of the deposited data

How the results depend on the processing

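Counts over all genes were most affected by scaling to ERCC totals, which left 802 genes higher and 825 lower in place of 4535 and 4596. Under that scaling 24 of the 64 called genes that the naming rule chose, CXCL8 aside, kept their call, none reversed, and 0 of the 10 cytokines were called lower. The spike-in share itself varied between libraries of 1 group, from 1.12% to 1.72% in siSCR. CCL5, CCL26, IL34, LIFR and TLR3 passed under every setting tried. The number of cytokines called lower (2: IL11 and CCL2) was 1 with upper-quartile factors, with no factors, with no filter, with a filter of 1 CPM (which left CCL2 untested) and with limma-voom, 0 with DESeq2, and 0 to 1 on leaving out 1 library. The cause was not tested. In the wider lists, counts of genes higher and lower under ERCC scaling were 1 and 6 for NF-kB (5 and 13 otherwise), 2 and 1 for AP-1 and C/EBP (8 and 2), 0 and 2 for AU-rich decay (6 and 9), 0 and 1 for IL-1 maturation (5 and 5), 0 and 0 for signal carriers (7 and 3), 0 and 3 for other interleukins (5 and 7), 0 and 1 for receptors (2 and 2) and 1 and 0 for RNA sensors (2 and 4). The mesenchymal list had 2 higher in place of 5, and the other chemokines 1 higher in place of 2. Without a filter 5 other chemokines were lower in place of 3. RNA sensors had 5 higher with upper-quartile factors and 2 lower with DESeq2, and the AP-1 and C/EBP list had 1 lower with upper-quartile factors, no filter or DESeq2. The replicate block left the number at 2, with 4478 genes higher and 4550 lower over all genes, and lost none of these 64 calls. Deviations of same-numbered libraries from their group means correlated at 0.0088, -0.11 and -0.035. With 3 libraries per group this cannot tell whether replicate numbers mark pairs, and the labels do not say. Without a filter, IL6, IL1A and IL1B had log2 fold changes of 0.76, 0.93 and -0.026 and none passed (adjusted p of 0.54, 0.33 and 0.99). Genes near 0 changed sign: on leaving out 1 library IL1RAP ran from -0.022 (without siSURF2 replicate 2) to 0.19 and SIGIRR from -0.092 (without siSCR replicate 1) to 0.22, and SIGIRR was at -0.0016 with ERCC scaling. By raw counts 4 of the 10 cytokines, and by CPM 5, had a higher mean in siSURF2, IL1B with 1 count in each group making the difference. A count was worth 0.050 to 0.060 CPM, which limits what can be said of CXCL3, IL6, IL1A, IL1B and CCL2.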
